A study of Mus musculus with 6 samples.

Results

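The genes described are myoglobin (Mb), the 4 adult globin genes of red cells (Hba-a1, Hba-a2, Hbb-bs and Hbb-bt), and Bpgm and Alas2, which serve oxygen release and heme supply in red cells. They were taken by gene symbol from the expression table, and all 7 were found among its 22481 symbols. The choice of these 7 used no measured value of the contrast between genotypes, although it was made with earlier results of these data known.

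Quadriceps was taken from mice with both alleles of Fbxw7 floxed, and total RNA was sequenced after removal of ribosomal RNA. Control mice were Fbxw7 flox/flox (3 libraries). Knockout mice were MCK-Cre+/-, Fbxw7 flox/flox (3 libraries), with Cre driven by the muscle creatine kinase promoter, which is active in muscle fibres, so that the other cells of the muscle keep the gene. FBXW7 is the subunit through which a ubiquitin ligase recognises its substrates, and the series asks how it bears on muscle glucose use and muscle mass. The controls carry no Cre, so Cre and the loss of Fbxw7 cannot be told apart. Neither age, sex nor strain is given in the labels. The labels do not say that each library is a separate animal, so p-values measure only the spread between these samples, which may be technical.

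Myoglobin is the oxygen-binding heme protein of heart and skeletal muscle fibres, whereas the tetramer of alpha and beta globins carries oxygen in red cells. Red cell precursors make globin mRNA in large amounts together with ALAS2, the erythroid form of the first enzyme of heme synthesis, while ALAS1 is the form used by other tissues. Young red cells keep part of that mRNA after they enter the blood, so a piece of muscle that still holds blood carries globin transcripts that its fibres did not make. BPGM makes 2,3-bisphosphoglycerate, which lowers the affinity of hemoglobin for oxygen.

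The adult globin genes lie in near-identical pairs, which limits how far each copy can be read on its own. The coding sequences of Hba-a1 (ENSMUSG00000069919, chr11:32283511-32284465, plus strand) and Hba-a2 (ENSMUSG00000069917, chr11:32296489-32297298, plus strand) are 429 bases long in GENCODE M21 and differ at 1 base, C381T, which leaves the amino acid as it is. Those of Hbb-bs (ENSMUSG00000052305, chr7:103826534-103828096, minus strand) and Hbb-bt (ENSMUSG00000073940, chr7:103812524-103813996, minus strand) are 444 bases long and also differ at 1 base, C417T, with no change of amino acid. Positions count from the A of the start codon, with the base of the first-named gene given first. The stretch around each difference, read 5′ to 3′ with the differing base in capitals, shows how little sets the copies apart:
Hba-a1: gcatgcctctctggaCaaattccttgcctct
Hba-a2: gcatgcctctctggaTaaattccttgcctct
Hbb-bs: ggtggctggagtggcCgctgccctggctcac
Hbb-bt: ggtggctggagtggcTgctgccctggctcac
Of all 50-base windows of the transcripts, 72.3% of those of Hba-a1 and 89.3% of those of Hba-a2 occur in the other copy. For the beta pair the shares are 53.2% of the windows of Hbb-bs and 58.3% of those of Hbb-bt. How fragments that match both copies were assigned is not given in the sources used here, so the split within a pair is uncertain and sums over each pair are given as well. No 50-base window of Mb or of the beta transcript Hbb-bs occurs in Hba-a1, nor any of Mb in Hbb-bs.

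The 250 bases before the RefSeq transcription start (GRCm38.p6) are shown for 4 of the genes, namely Hbb-bs, Hba-a1, Bpgm and Mb. Of these, Mb rose in knockouts, Hbb-bs and Bpgm fell, and Hba-a1 was not called. Capitals mark 5 motifs searched on both strands, namely the TATA box (TATAA, in reverse TTATA), the CCAAT box (in reverse ATTGG), the CACCC box (in reverse GGGTG), a site for GATA factors (GATAA, in reverse TTATC) and a run like those bound by MEF2 factors in muscle genes (AAAATAG, in reverse CTATTTT). The windows are chr7:103827929-103828178 on the minus strand for Hbb-bs, chr11:32283422-32283671 on the plus strand for Hba-a1, chr6:34476106-34476355 on the plus strand for Bpgm and chr15:77022728-77022977 on the minus strand for Mb, which has 3 annotated starts, of which the one farthest downstream is shown:
Hbb-bs: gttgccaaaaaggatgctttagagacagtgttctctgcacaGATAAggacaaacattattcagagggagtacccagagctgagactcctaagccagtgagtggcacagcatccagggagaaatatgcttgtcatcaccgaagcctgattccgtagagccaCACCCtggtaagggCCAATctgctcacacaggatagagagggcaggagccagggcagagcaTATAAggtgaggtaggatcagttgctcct
Hba-a1: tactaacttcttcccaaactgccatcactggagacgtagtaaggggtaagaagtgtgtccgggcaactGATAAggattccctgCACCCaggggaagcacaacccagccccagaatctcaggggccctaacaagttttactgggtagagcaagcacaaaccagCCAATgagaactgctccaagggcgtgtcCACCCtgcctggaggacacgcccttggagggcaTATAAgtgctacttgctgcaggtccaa
Bpgm: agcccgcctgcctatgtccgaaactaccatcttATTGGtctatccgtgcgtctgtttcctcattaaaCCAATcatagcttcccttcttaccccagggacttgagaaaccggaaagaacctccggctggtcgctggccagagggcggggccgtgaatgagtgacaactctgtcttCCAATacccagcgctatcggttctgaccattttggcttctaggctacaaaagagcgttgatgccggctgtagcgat
Mb: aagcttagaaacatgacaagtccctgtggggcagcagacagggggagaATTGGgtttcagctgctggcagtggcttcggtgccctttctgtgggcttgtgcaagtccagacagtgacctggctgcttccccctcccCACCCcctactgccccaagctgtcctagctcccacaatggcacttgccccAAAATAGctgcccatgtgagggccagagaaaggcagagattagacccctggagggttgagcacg
The windows of Hbb-bs, Hbb-bt, Hba-a1 and Hba-a2 each held the first 4 of these motifs, a combination present in 0.969% of the 32817 promoter windows searched. TATAA began 29 bases before the start in Hbb-bs, 28 in Hbb-bt and 27 in Hba-a1. The RefSeq promoter sequences of Hba-a1 and Hba-a2, which run on for 50 bases past the start, were identical over all 297 bases that could be compared once they were shifted by 3 bases. The Mb window shown held AAAATAG, which 3.89% of windows hold, as well as a CACCC box and a reverse CCAAT box. It held no TATA box and no GATA site. The window of the next Mb start upstream, chr15:77022788-77023037 on the minus strand, ends inside that same AAAATAG. That window therefore lacks the full motif, and the window of the farthest upstream start lacks it as well. Which start the muscle used was not tested. The Bpgm window held only the CCAAT box, on both strands, a motif present in 33.8% of windows. The TATA box occurred in 22.8%, the CACCC box in 52% and the GATA site in 22.6% of windows. The Alas2 window, not shown, held a TATA box, which reads on both strands with overlapping letters, 3 CACCC boxes and a GATA site, and the TATA box on the sense strand began 207 bases before the start. These matches describe letters only, and their bearing on the changes in knockouts was not tested.

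The libraries held 8435731 to 11783852 estimated fragments in controls and 3150439 to 6704231 in knockouts, so knockout values rest on fewer fragments. Fbxw7 was lower in knockouts, at 6.37 ± 0.140 FPKM in controls against 3.90 ± 0.113 FPKM in knockouts (SD, n = 3 per group, log2 change -0.69, SE 0.12, limma adjusted p = 0.0028). Exons outside the floxed part and the other cells of the muscle may both add to the knockout value. Their shares were not tested. The label of muscle held: Ckm, the muscle creatine kinase, averaged 14387 FPKM in controls and 5360 in knockouts. FPKM scales fragments by transcript length and by depth, so levels of different genes are compared per length here. Of 11659 tested genes 24.5% were higher and 10.1% lower in knockouts, and their median log2 change was 0.21. A gene that changed by that amount moved as the typical gene did.

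Myoglobin was higher and most of the other 6 genes were lower in knockout muscle. By limma, 1 of 7 rose and 4 fell, where 24.5% and 10.1% of tested genes did, and Hba-a1 and Alas2 were not called. Mb, the muscle globin, stood first in all 6 libraries, and the order Mb, Hbb-bs, Bpgm, Hba-a1, Hbb-bt, Hba-a2, Alas2 by FPKM was the same in each of the 6 libraries. The places of the globin copies rest on the uncertain assignment of fragments shared within a pair, which may act alike in every library. The samples of the 2 groups did not overlap for 6 of the 7 genes, Hba-a1 being the exception. Among all tested genes 35.7% had groups that did not overlap with the knockouts higher, and 14% with the knockouts lower.

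Mb (ENSMUSG00000018893, chr15:77015487-77050670, minus strand) read 2936.5, 3202 and 3174 FPKM in the controls and 3891, 4072 and 4094 FPKM in the knockouts. Every knockout library was above every control library, and the 3 knockout values lay close to one another. Mean levels were 3104 ± 146 and 4019 ± 111 FPKM, a 1.29-fold rise (log2 change 0.37, SE 0.05, 95% interval 0.26 to 0.49, adjusted p = 0.000956 by limma). Under median-of-ratios scaling, which puts the median of all genes at 0.01, the log2 change was 0.17 (adjusted p = 0.0885). Apol6 is a protein-coding gene on the other strand within the Mb locus. It read 21.1, 22.6 and 19.2 FPKM in controls and 29.5, 34.5 and 33.9 FPKM in knockouts. Its highest value, 34.5 FPKM, stands beside 2936.5 FPKM for the lowest Mb value. The use of strand in counting is not stated, and the share of Apol6 reads in Mb was not tested.

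**Figure D1:**
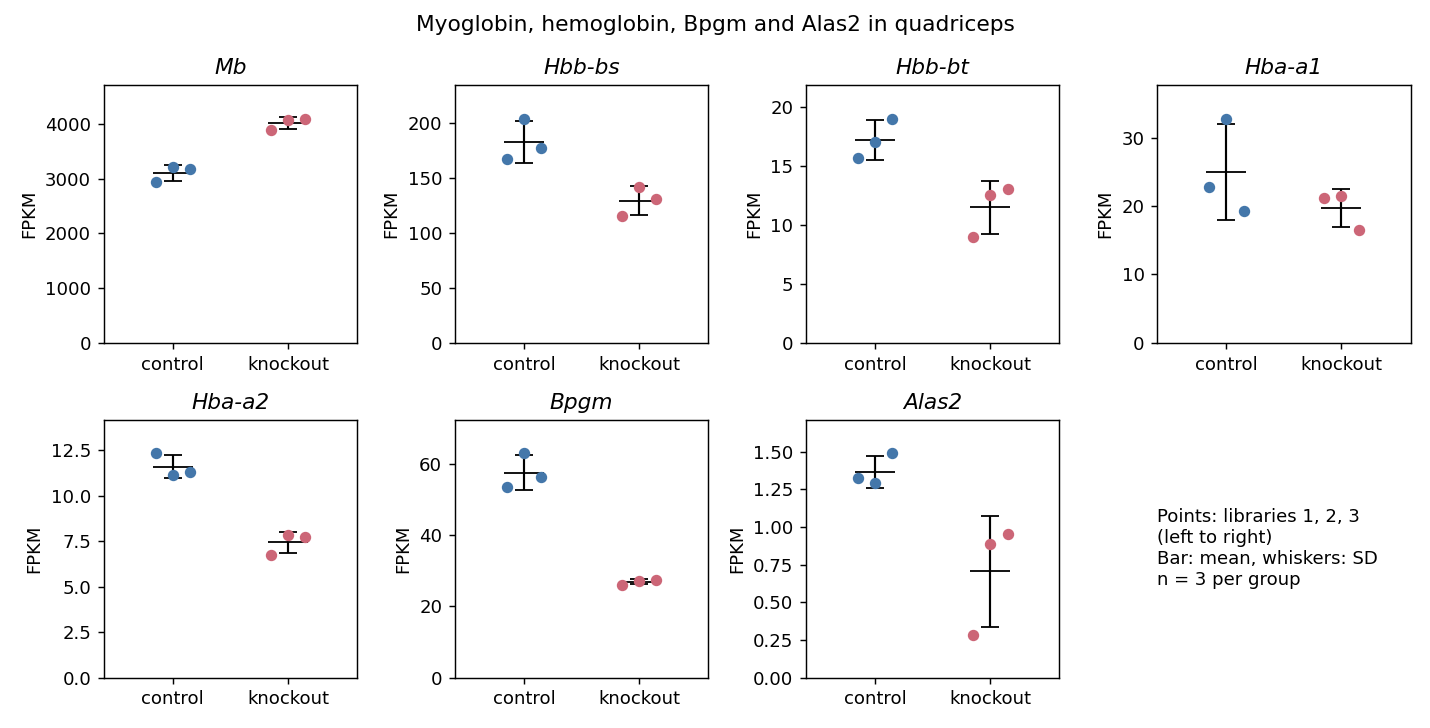
FPKM of each of the 7 genes in the 3 control and 3 knockout libraries, 1 panel per gene with its own linear axis from 0; points are libraries and bars the means ± SD (n = 3). Mb is above all its control values in every knockout library, whereas Hbb-bs, Hba-a2, Hbb-bt, Bpgm and Alas2 lie below theirs, and Hba-a1 overlaps.

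Hbb-bs, the more abundant beta globin gene, read 167, 204 and 177 FPKM in the controls and 115, 142 and 131 FPKM in the knockouts. All knockout libraries were below all control libraries. The means were 182.5 ± 19.1 and 129 ± 13.3 FPKM, 1.41-fold lower (log2 change -0.50, SE 0.10, 95% interval -0.73 to -0.27, adjusted p = 0.00614 by limma). In fragments, 1195, 1433 and 965 stood behind the control values and 232, 649 and 475 behind the knockout values.

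Hbb-bt, the other adult beta gene, was 15.6, 17.0 and 19.0 FPKM in controls and 8.93, 12.6 and 13.0 in knockouts. The lowest control value was above the highest knockout value, and the mean fell 1.5-fold (log2 change -0.59, SE 0.16, adjusted p = 0.0197 by limma). Without control library 3 the log2 change was -0.52 (adjusted p = 0.073), and without control library 2 it was -0.60 (adjusted p = 0.0539), neither past the threshold. The call was kept when control library 1 or any 1 knockout library was left out.

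The alpha genes differed from each other in what could be called. Hba-a2 read 12.3, 11.2 and 11.3 FPKM in controls and 6.76, 7.82 and 7.73 in knockouts, with no overlap and the means 1.56-fold apart (11.6 ± 0.634 and 7.44 ± 0.590, log2 change -0.64, SE 0.11, adjusted p = 0.00321 by limma). Hba-a1 read 22.8, 32.8 and 19.3 FPKM in controls and 21.2, 21.5 and 16.5 in knockouts, which overlap, with control library 2 above the rest. Its means were 24.95 ± 7.0 and 19.7 ± 2.76 FPKM (log2 change -0.31, 95% interval -0.75 to 0.13, adjusted p = 0.239 by limma). The interval includes the change of Hba-a2, and a p that misses the threshold does not show that Hba-a1 was unchanged.

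Sums over each pair depend less on the split between copies, although a fragment is worth a different FPKM in each copy and fragments that match both may have been dropped. The alpha sum was 30.6 to 43.9 FPKM in controls and 24.3 to 29.3 in knockouts, and the beta sum 182 to 221 and 124 to 154 FPKM. Neither range overlapped the other group's. The alpha sum was 15.6% to 19.9% of the beta sum in controls and 16.9% to 22.5% in knockouts, which overlap. Hbb-bt made up 7.71% to 9.70% of the beta sum in controls and 7.20% to 9.05% in knockouts, and Hba-a2 25.4% to 37.0% and 24.2% to 31.8% of the alpha sum, so neither split separated the groups.

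Bpgm, whose product is an enzyme of red cell glycolysis, changed most among the called genes of the 7. It lies at chr6:34476207-34505613 on the plus strand (ENSMUSG00000038871) and read 53.6, 63.0 and 56.3 FPKM in controls and 26.1, 27.2 and 27.6 in knockouts. The knockout values were close to each other and under the lowest control value by a wide margin. Means of 57.6 ± 4.87 and 27.0 ± 0.748 FPKM were 2.14-fold apart (log2 change -1.09, SE 0.09, 95% interval -1.28 to -0.90, adjusted p = 4.55e-05 by limma). It was called in all 16 alternatives.

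Alas2, on chrX:150547375-150570638 (plus strand, ENSMUSG00000025270), was near the lower limit of measurement. It read 1.32, 1.29 and 1.49 FPKM in controls and 0.281, 0.886 and 0.951 in knockouts, from 28, 35 and 18 fragments and 2, 17 and 13 fragments. Knockout library 1 was the lowest, and its 2 fragments have an exact Poisson 95% interval of 0.0340 to 1.02 FPKM, which covers counting error only. The log2 change was -0.996 (SE 0.40, 95% interval -1.90 to -0.09, adjusted p = 0.0822 by limma), and without knockout library 1 it was -0.52 (adjusted p = 0.104). Apex2, on the opposite strand of the same locus, read 1.80, 1.99 and 1.63 FPKM in controls and 1.39, 1.29 and 1.55 in knockouts. As the use of strand in counting is not stated, Apex2 reads may be part of the Alas2 values, which was not tested.

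**Figure D2:**
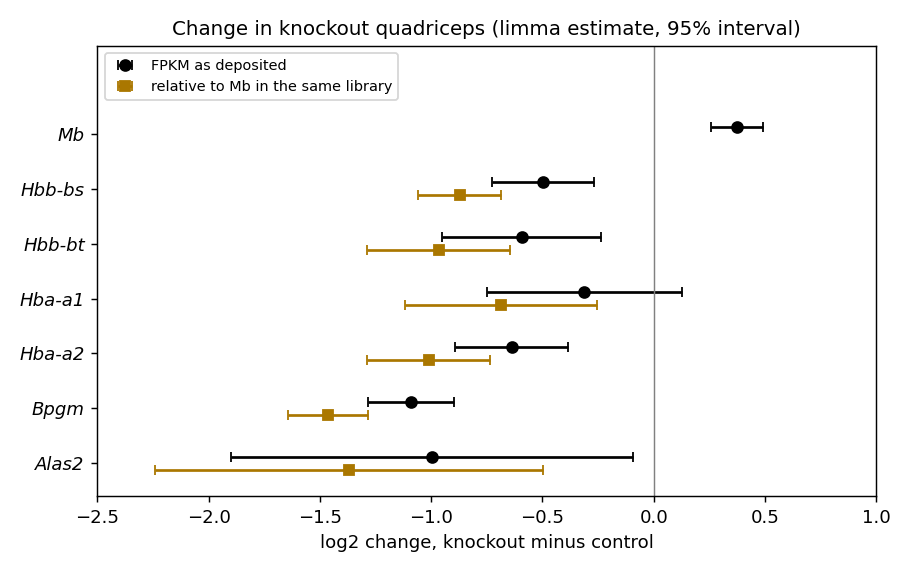
Log2 change of the 7 genes, knockout minus control, with 95% intervals from limma (bars), from the fit to FPKM as deposited (circles) and from the fit relative to Mb in the same library (squares). Mb at 0.37 stands to the right of 0 and the other 6 genes to the left, with only the FPKM interval of Hba-a1 crossing 0.

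Comparing each of the other 6 genes with muscle Mb removes scaling between libraries, since both are read in the same library. Relative to Mb all 6 were lower in knockouts by limma, where 24.5% of tested genes were lower and 7.7% higher. The median of all genes was -0.16. The change of Hbb-bs relative to Mb was -0.87 on the log2 scale (SE 0.08, adjusted p = 6.79e-05), that of Hba-a2 -1.01 (SE 0.12, adjusted p = 0.000284) and that of Hbb-bt -0.97 (SE 0.14, adjusted p = 0.000812). Bpgm changed most, by -1.46 (SE 0.08, adjusted p = 2.63e-06), with Hba-a1 at -0.68 (SE 0.19, adjusted p = 0.0227) and Alas2 at -1.37 (SE 0.38, adjusted p = 0.0237). For Hba-a1 and Alas2 the call is lost when single libraries are left out. Adjusted p reached 0.066 without control library 1, 0.0745 without control library 2 and 0.0675 without knockout library 3 for Hba-a1, and 0.0733, 0.0595 and 0.0689 without control libraries 1, 2 and 3 for Alas2.

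Adult globin FPKM summed to 7.14% to 8.27% of the Mb FPKM in controls and 3.91% to 4.51% in knockouts (means 7.61 ± 0.590% and 4.17 ± 0.306%). Bpgm was 1.77% to 1.97% of Mb in controls and 0.668% to 0.673% in knockouts. In each case the groups were apart by more than the spread within them. These ratios join a fall of the globins or of Bpgm to a rise of Mb, and either alone would lower them.

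**Figure D3:**
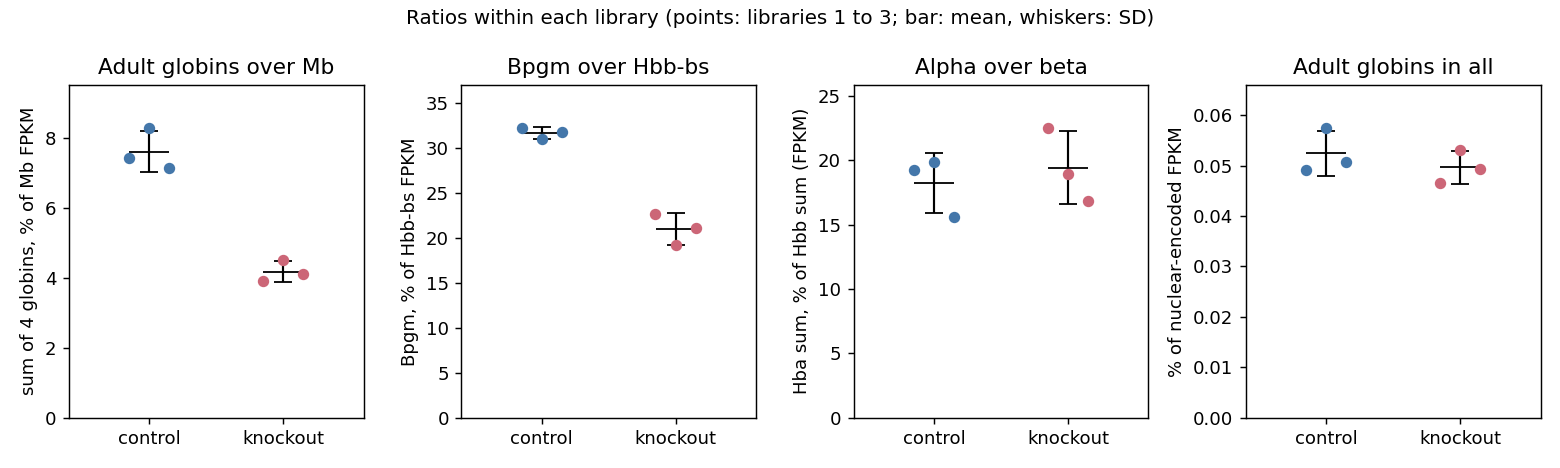
Ratios within each library: adult globins as a percent of Mb, Bpgm as a percent of Hbb-bs, the alpha sum as a percent of the beta sum and adult globins as a percent of all nuclear-encoded FPKM, by group, each point a library (n = 3). The first 2 ratios separate the groups, whereas the alpha to beta ratio and the share of nuclear-encoded FPKM overlap.

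The scale between libraries matters for the globins. FPKM of all nuclear-encoded genes summed to 443202, 461422 and 446656 in controls and 327003, 345842 and 340830 in knockouts. As a share of that sum, adult globins were 0.0491% to 0.0574% in controls and 0.0465% to 0.0531% in knockouts, which overlap, whereas Bpgm was 0.0121% to 0.0137% in controls and 0.00786% to 0.00809% in knockouts, which do not overlap. Mb was 0.663% to 0.711% of the sum in controls and 1.18% to 1.201% in knockouts. With the count columns scaled to a common total, Hbb-bs was -0.24 (adjusted p = 0.0171 by limma), Hba-a2 -0.35 (adjusted p = 0.127) and Hbb-bt -0.31 (adjusted p = 0.134). The direction of the 7 genes was the same in all alternatives run.

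**Figure D4:**
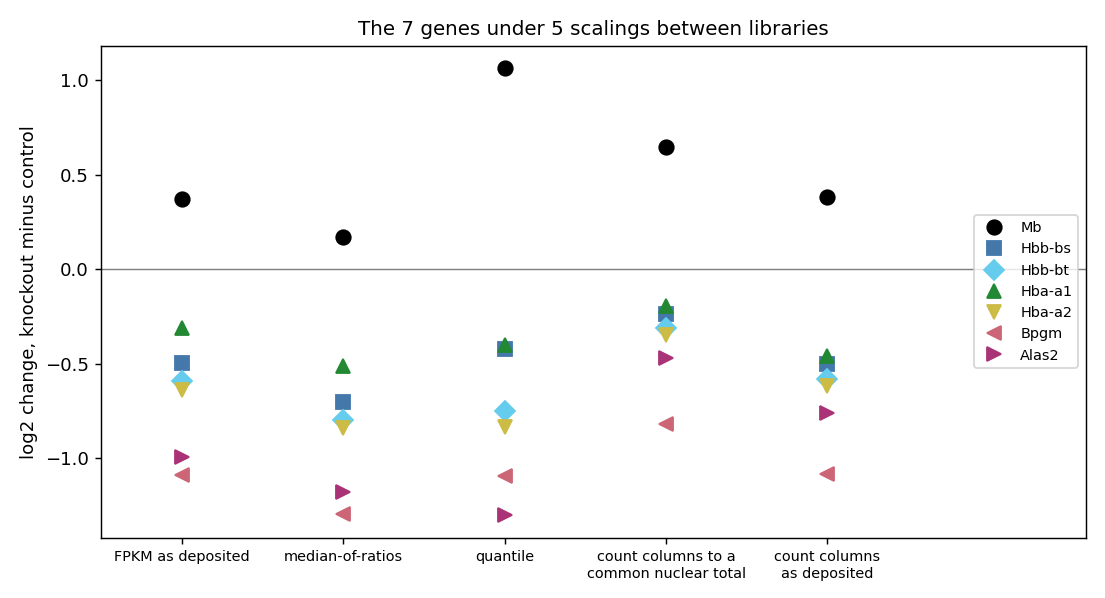
Log2 change (knockout minus control) of the 7 genes under 5 ways of scaling libraries, namely FPKM as deposited, median-of-ratios, quantile normalization, count columns scaled to a common nuclear total and count columns as deposited. All 7 genes keep their sign, with Mb from 0.17 under median-of-ratios to 1.06 under quantile normalization.

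Bpgm was also lower when set against the more abundant beta globin. It was 30.9% to 32.1% of Hbb-bs in controls and 19.2% to 22.7% in knockouts, and relative to Hbb-bs its log2 change was -0.59 (SE 0.12, 95% interval -0.85 to -0.34, adjusted p = 0.00114 by limma), where 2.93% of tested genes were lower and 66.6% higher. The comparison with Hbb-bs was chosen after seeing the data. Relative to Hbb-bs, Hba-a1 (0.19, adjusted p = 0.352), Hba-a2 (-0.14, adjusted p = 0.43), Hbb-bt (-0.10, adjusted p = 0.583) and Alas2 (-0.50, adjusted p = 0.236) were not called. Pgam2, the muscle phosphoglycerate mutase, averaged 2447 ± 184 FPKM in controls and 1144 ± 99.7 in knockouts (log2 change -1.10, adjusted p = 2.99e-05 by limma). Pgam1, the form found in most tissues, rose from 2.67 to 5.12 FPKM (log2 change 0.91, adjusted p = 0.0046). In bulk muscle, fewer cells of a type and less RNA per cell cannot be told apart, and which cells carry Bpgm transcript was not tested.

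Markers of red cell precursors other than the globins were mostly at or near 0. Of 24 listed genes of the red cell membrane and of maturation, 23 were in the table, and 7 of these (Rhag, Rhd, Kel, Cldn13, Hemgn, Trim10 and Trim58) were at 0 in all 6 libraries. Slc4a1, the band 3 anion exchanger, had 1 fragment in control library 1 (0.0150 FPKM) and was at 0 in every other library. Only 5 of the 23 passed the level filter and 2 of these fell, where 10.1% of all tested genes did. They were Gypc (19.2 to 11.8 FPKM, log2 change -0.68, adjusted p = 0.00255 by limma) and Ank1 (283 to 224 FPKM, log2 change -0.33, adjusted p = 0.0051), whose call was lost under quantile normalization and scaled count columns. Sptb, Xk and Aqp1 were not called. Muscle fibres express Ank1 and Sptb and vessels express Aqp1. The 18 untested genes summed to 1.01 to 1.69 FPKM in controls and 2.09 to 2.48 FPKM in knockouts.

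Of 9 genes of heme synthesis, all tested, 2 rose and 1 fell, shares close to the 24.5% and 10.1% of all tested genes, with a median log2 change of 0.01 against 0.21. Alas1, the first enzyme of the path in tissues other than red cells, rose from 68.3 ± 4.81 to 80.6 ± 1.26 FPKM (log2 change 0.24, adjusted p = 0.0348 by limma), and Ppox rose from 6.67 to 8.61 FPKM (adjusted p = 0.0293). Cpox fell from 7.12 to 5.05 FPKM (log2 change -0.50, adjusted p = 0.032). None of these 3 calls held in all alternatives. Alas1 was 42.8 to 56.9 times the FPKM of Alas2 in controls and 83.5, 92.5 and 286 times in knockouts, the last in knockout library 1, where Alas2 rests on 2 fragments. Fech, which inserts iron into the ring, was 40.6 ± 4.36 and 48.0 ± 4.42 FPKM and was not called.

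Of 22 listed iron genes 20 were tested, with 4 higher and 4 lower, where 24.5% and 10.1% of all tested genes were, and a median of 0.10. Tfrc, the transferrin receptor that brings iron into cells and is abundant in red cell precursors, fell from 29.8 ± 1.11 to 12.9 ± 0.795 FPKM (log2 change -1.204, adjusted p = 3.65e-05 by limma). Hfe2, which encodes hemojuvelin, a membrane protein of muscle and liver that controls hepcidin, fell from 276.7 to 162.8 FPKM (log2 change -0.77, adjusted p = 2.77e-05). Fth1, the ferritin heavy chain, fell from 1803 to 1500 FPKM (log2 change -0.26, adjusted p = 0.00591), a direction that turned under quantile normalization and under scaled count columns. Slc40a1, the iron exporter ferroportin, fell from 6.90 to 4.9 FPKM (log2 change -0.49, adjusted p = 0.0448), a call lost in 8 of 16 alternatives. Slc39a14, Aco1, Ncoa4 and Trf rose, and their calls were lost in 1, 1, 5 and 2 of 16 alternatives. Against the 24.5% of all tested genes that rose, 2 of 16 tested heme transport genes did, Abcg2 and Pgrmc1, and 14 were not called. Both rises lost their call under median-of-ratios and quantile scaling. Of 7 tested breakdown genes 2 rose, Blvrb and Lrp1, a share close to that of all tested genes. Their calls were lost in 6 and 1 of 16 alternatives. Hmox1, the heme oxygenase, was 8.16 and 7.30 FPKM and was not called.

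**Figure D5:**
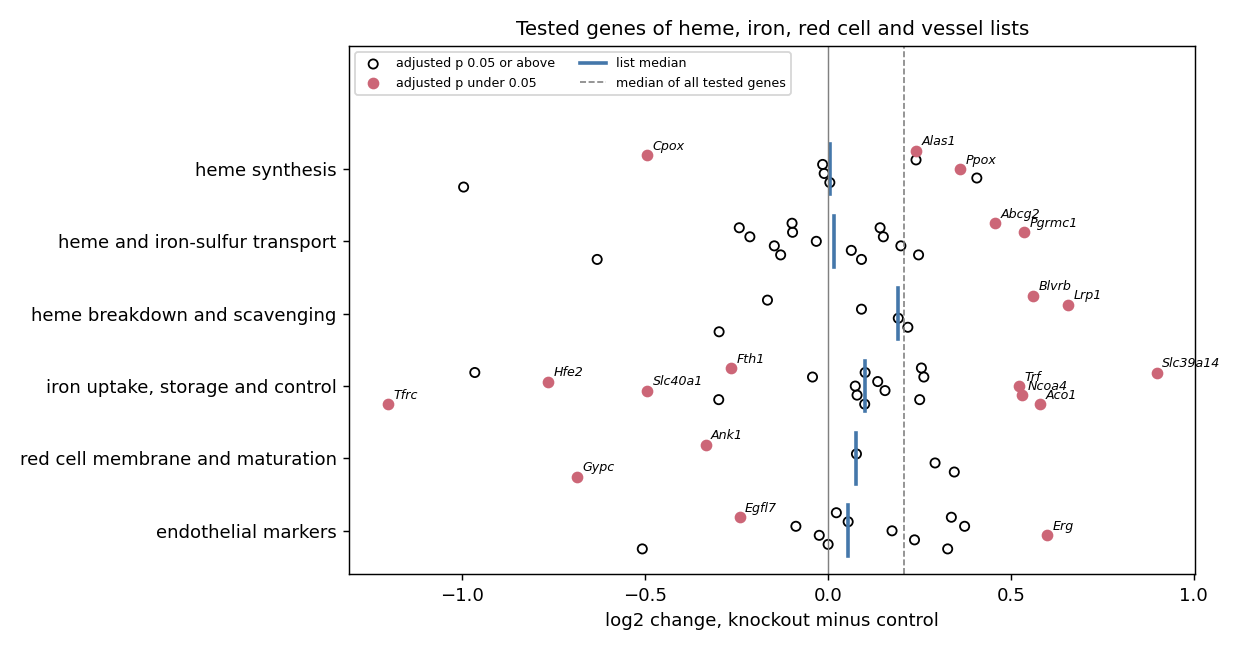
Log2 change of each tested gene (points) in the lists for heme synthesis, heme transport, heme breakdown, iron, red cell membrane and endothelium, filled where called, with each list's median as a vertical bar and the median of all tested genes (0.21) as a dashed line. The 6 list medians lie between 0.01 and 0.19, with Tfrc the lowest point and Slc39a14 the highest.

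Markers of other cell types are given beside these results, where 24.5% of all tested genes rose and 10.1% fell. Of 13 endothelial markers 1 rose (Erg) and 1 fell (Egfl7, whose direction turned under scaled count columns). Their summed levels were 136 to 145 FPKM in controls and 131 to 143 in knockouts, which overlap. Under median-of-ratios, quantile normalization, scaled count columns and count columns as deposited, 0, 0, 9 and 4 endothelial markers rose. Under the same scalings 3, 2, 0 and 1 fell, so these counts depend on the scaling. All 8 B cell markers together summed to 0.0855 to 0.214 FPKM in controls and 12.6 to 16.05 in knockouts, and all 8 T cell markers to 0.259 to 0.929 and 12.2 to 16.8 FPKM. Of these, 5 and 6 passed the level filter, and only through their knockout values, so no count of calls is read from them. Of 10 muscle fibre markers 2 rose (Des and Actn2) and 7 fell, among them Ckm, although Acta1 turned under quantile normalization and Ttn under scaled count columns. Their sum went from 69286 to 70526 FPKM in controls down to 30394 to 32516 in knockouts. The part of these shifts in the fall of the globins and Bpgm and in the rise of Mb was not tested.

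By profile over the 6 libraries, measured as the root mean square difference of centred log2 values, the 5 genes nearest to Mb were Hars, Trpc4ap, Cyth2, Ccpg1 and Arid4a, at 0.0274 to 0.0346, among 434 of 9983 genes within 0.1. The 5 nearest to Hbb-bs were Dirc2, Rpl10, Psenen, Polr2c and Vapa, at 0.0450 to 0.0613, among 89 genes within 0.1. The other globins were farther from Hbb-bs, with Hba-a2 at 0.147, Hbb-bt at 0.154 and Hba-a1 at 0.243. Bpgm was at 0.305, Mb at 0.445 and Alas2 at 0.484. The spread of a gene with few fragments enters this measure, and Hba-a2 and Alas2 have the fewest.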

How the data were processed

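Total RNA of mouse quadriceps, depleted of ribosomal RNA and prepared with a stranded kit per the labels' protocols, was measured in 3 control and 3 knockout libraries. The authors deposited FPKM per gene and library; per the submitters' processing notes reads were trimmed with cutadapt 1.9.3, aligned with HISAT2 2.0.4 to mm10 and quantified with Cufflinks and Cuffdiff (no version stated). The deposited columns headed as counts hold a scaled signal, with 92.6% to 94.1% of values above 0 whole within 0.1 of a fragment, too few for a count test; fragments here are that signal divided by its constant. The deposited gene length column was not tested. One line of the table was emptied for this work.

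Rows sharing a symbol (79 of 22481 symbols) were summed. The 11659 genes averaging 0.5 FPKM or more were compared on log2(FPKM + 0.1), where folds of low genes are understated, by limma 3.58.1 in R 4.3.3 with a mean-variance trend and Benjamini-Hochberg adjustment at 0.05. The same fit was run on values relative to Mb and, chosen after seeing the data, relative to Hbb-bs, and the scripts were tested on simulated data. Named are the 7 genes, Fbxw7, called members of related gene lists and the 5 genes nearest in profile to Mb and to Hbb-bs. The 7 genes and the lists were chosen with earlier results of these data known. Promoters are RefSeq (GRCm38.p6) and transcripts GENCODE M21. Alternatives covered pseudocount, filter, scaling, trend, replicate block and each library left out.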

Additional observations from a re-analysis of the deposited data

How the results depend on the processing

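Mb, Hba-a2, Hbb-bs and Bpgm were called with the same direction in every alternative except these: Mb at 0.17 under median-of-ratios (adjusted p = 0.0885) and Hba-a2 at -0.35 under scaled count columns (adjusted p = 0.127). Hbb-bt lost its call under scaled count columns (-0.31, adjusted p = 0.134) and ranged from -0.69 to -0.42 with single libraries left out. Alas2 passed at -1.30 under quantile normalization (adjusted p = 0.0295) and could not be tested with the filter at 2 FPKM. Relative to Mb, Hba-a1 lost its call without the trend (-0.68, adjusted p = 0.0633) and ranged from -0.87 to -0.49 with libraries left out; Alas2 lost it under scaled count columns (-1.12, adjusted p = 0.0673) and ranged from -1.62 to -0.92. Genes higher numbered 1724 under median-of-ratios, 1715 under quantile normalization and 6591 under scaled count columns, and genes lower 2018 under median-of-ratios and 724 under scaled count columns, against 2860 and 1177. Heme synthesis genes higher numbered 0, 1 and 6 under these 3 scalings, and lower 2 under quantile normalization and 0 under scaled count columns. Heme transport genes higher numbered 0, 1 and 9, with 1 under count columns as deposited, and lower 4, 2 and, as deposited, 1. Heme breakdown genes higher numbered 0, 1 and 4 and lower 1 under each of the first 2. Iron genes higher numbered 2, 2 and 13 and lower 2 under scaled count columns. Reversed were Acta1 (0.13) and Fth1 (0.27) under quantile normalization and Egfl7 (0.0342), Fth1 (0.0139), Tpm3 (0.12) and Ttn (0.00486) under scaled count columns. The cause was not tested. The count columns as deposited were added after seeing the data. In the replicate block, Hbb-bs kept -0.50 (adjusted p = 0.00147), and no call of the 7 genes changed; 2655 genes were higher and 1173 lower. The block also ended the calls of Abcg2, Cpox, Egfl7, Lmo2, Ppox and Ttn. Same-numbered libraries correlated at -0.0659, 0.197 and 0.176 in their deviations from the group means. Libraries 2 and 3 of each group correlated best with their own number, whereas library 1 did not. These values do not settle whether same-numbered samples are paired, and the labels give only a shared number. Depth limits Alas2 most, with 2 fragments in knockout library 1.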

Other observations

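The other globin genes of red cells were at or near 0. Hbb-y, Hbb-bh2, Hba-x, Hbq1a and Hbq1b were at 0 in all 6 libraries, and Hbb-bh1 was above 0 in knockout library 3 alone, at 0.557 FPKM. Cygb, the cytoglobin of fibroblasts, was 8.01 and 9.65 FPKM and was not called by limma (adjusted p = 0.114).

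Of 9 platelet markers 2 were tested. Pf4 was at 7.97 FPKM in controls and 8.73 in knockouts (adjusted p = 0.84 by limma), and Itga2b at 0.848 and 1.70 FPKM (adjusted p = 0.281). Of 10 neutrophil markers S100a8 (adjusted p = 0.542) and S100a9 (adjusted p = 0.974) were tested, and the list summed to 0.930 to 2.36 FPKM in controls and 3.29 to 5.41 in knockouts, although each tested gene was at 0 in 1 knockout library. Among all tested genes 35.7% had knockout values above every control value. Of all tested genes 24.5% rose and 10.1% fell. Of 11 erythroid regulators 3 were tested and Lmo2, which vessels also express, rose from 4.18 to 6.07 FPKM, while Gfi1b was at 0 in all libraries. Of 10 markers of slow oxidative fibres 3 rose and 5 fell, while Myh7 and Myl2 were not called. The risers were Fabp3 (664 to 1348 FPKM, log2 change 1.02), Myh2 (0.65) and Atp2a2 (0.40). Those that fell were Tnnt1 (log2 change -0.95), Tnnc1 (-0.70), Tnni1 (-0.59), Myl3 (-0.44) and Tpm3 (-0.25). The call of Atp2a2 was lost in 9 alternatives and that of Myl3 in 1. Tpm3 lost its call in 6 and turned under scaled count columns.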
